A study of Homo sapiens with 2 samples.

Results

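The selenium genes described here are 10 human genes chosen by name: 7 selenoproteins (SELENOP, GPX1, GPX2, GPX3, GPX4, SELENOW and SEPHS2), the selenium-binding enzyme SELENBP1, and SECISBP2 and PSTK, which act in making selenoproteins. They had 17 probe sets with that single gene symbol in the platform annotation, out of 54675 probe sets on the array, and they are 10 of 19740 genes. SELENOP was known from earlier results on these arrays to be among the lowest genes, so its value entered the choice of the group and is given as a description only. The cells were HCT15, a human cell line from a colorectal adenocarcinoma, cultured in RPMI with fetal bovine serum. The groups were 1 array titled ARID3B-Cas9, with the genotype given as ARID3B knockout, and 1 array titled Ctrl, with the genotype given as control. ARID3B binds DNA through an AT-rich interaction domain. Whether the edited cells were a clone or a pool, and what the control cells received, is not stated in the labels. With 1 array per group there is no replicate check, no error and no test, and every difference compares these arrays alone.

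Selenium acts in human cells mainly as selenocysteine, an amino acid that is placed at UGA codons, which otherwise stop translation. Selenocysteine is made on its own transfer RNA: a seryl-tRNA synthetase loads serine, the kinase PSTK phosphorylates it, and SEPSECS exchanges the phosphate for selenium from selenophosphate, which SEPHS2 makes. SECISBP2 binds the SECIS hairpin of selenoprotein messages and, with the elongation factor EEFSEC, lets the ribosome read UGA as selenocysteine. The liver secretes SELENOP to carry selenium to other tissues, which take it up through receptors such as LRP8, and the intestinal epithelium also makes SELENOP. The glutathione peroxidases reduce peroxides, GPX2 being the form typical of the gut lining and GPX4 the one that reduces lipid peroxides and holds off ferroptosis.

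The promoter of SELENOP is shown because its transcript differed most, and those of PSTK and SEPHS2, with the next lowest differences, and of GPX4, with the highest, are shown beside it. Each is the strand of the gene, 5′ to 3′, ending at the base before the transcription start, from RefSeq (GRCh38.p14), in which 9 of the 10 genes had an entry. The SELENOP stretch is the 250 bases at chr5:42811893-42812142 on the minus strand. The others are 100 bases, for PSTK at chr10:122980301-122980400 (plus), for SEPHS2 at chr16:30445875-30445974 (minus) and for the first of 3 GPX4 starts at chr19:1103894-1103993 (plus). Capitals mark the letters of a TATA box, a FOXO motif and an antioxidant response element.
SELENOP: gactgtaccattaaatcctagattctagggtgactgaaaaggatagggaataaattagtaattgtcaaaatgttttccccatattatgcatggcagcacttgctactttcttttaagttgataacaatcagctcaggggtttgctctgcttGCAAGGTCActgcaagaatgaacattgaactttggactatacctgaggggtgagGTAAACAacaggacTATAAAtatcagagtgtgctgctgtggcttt
PSTK: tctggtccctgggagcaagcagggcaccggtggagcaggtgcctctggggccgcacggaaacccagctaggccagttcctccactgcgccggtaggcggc
SEPHS2: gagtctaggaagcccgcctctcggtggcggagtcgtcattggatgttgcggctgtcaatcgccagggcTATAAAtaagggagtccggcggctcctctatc
GPX4: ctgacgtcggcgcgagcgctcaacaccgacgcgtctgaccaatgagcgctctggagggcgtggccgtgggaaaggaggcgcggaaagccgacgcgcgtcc

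The letters TATAAA (the TATA box), GTAAACA (the FOXO motif) and TGACNNNGC (the antioxidant response element, where N is any base) were searched on both strands of the 250 bases before each start. SELENOP held all 3, TATAAA beginning 31 bases before the start, GTAAACA 45 bases before it and the antioxidant letters, on the opposite strand, 99 bases before it. None of them overlapped. TATAAA was also found in SEPHS2, 32 bases before the start, and in no other entry of these genes. The antioxidant letters were also found in GPX2 and in the second of the SECISBP2 entries. Of 35116 promoter windows of this length, 10.7% held TATAAA, 2.98% held GTAAACA and 10.9% held TGACNNNGC, so that a match to one of these short motifs is a description of the letters and not of a bound factor. The SELENOP window had 39.6% G and C, against 60.8% in PSTK, 52.8% in SEPHS2 and a median of 58% over all windows.

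The ARID3B transcript itself was higher on the array labelled knockout, at 6.09 against 5.12 for the control (RMA log2 values, 1 probe set), a difference of 0.97. It does not bear out the label, although an edited gene can keep its transcript, so that array is named the knockout-labelled array. Genes were compared where the higher of their values reached 4.59, the median of all probe sets other than controls (the floor), which left 12830 of 19740. Past 2-fold, 1.05% of these genes (135) were higher and 3.79% (486) lower on the knockout-labelled array, and 52.9% lay above 0. These directions are relative to other genes on the array: the 27 poly-A spike-in probe sets, bacterial transcripts normally added to RNA before labelling, lay 1.05 lower on the log2 scale, and scaling on them put 7567 genes 2-fold higher and 58 lower. Of 10 colorectal epithelial markers, 8 were above the floor on both arrays, EPCAM and KRT18 among them, and KRT20 and LGALS4 were under it on both.

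Of the 10 selenium genes 9 reached the floor, and 1 of them, SELENOP, was past 2-fold, in the lower direction. None was 2-fold higher. The background for these counts is the 3.79% and 1.05% of all genes given above, and since SELENOP was chosen on this contrast nothing is read from its count. The median difference of the 9 genes was -0.38, against 0.04 over all genes compared, with 4 above 0 and 5 below. That median rests on which probe set stands for SECISBP2 and on which genes are compared. It was 0.06 over 8 genes with the mean of each gene's probe sets, under which PSTK missed the floor. It was 0.08 over 7 genes without probe sets of the types that may match more than 1 transcript. GPX1 and SELENBP1 had only such probe sets. Without SELENOP the 8 remaining genes had a median of -0.15, with 4 on each side of 0.

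**Figure D1:**
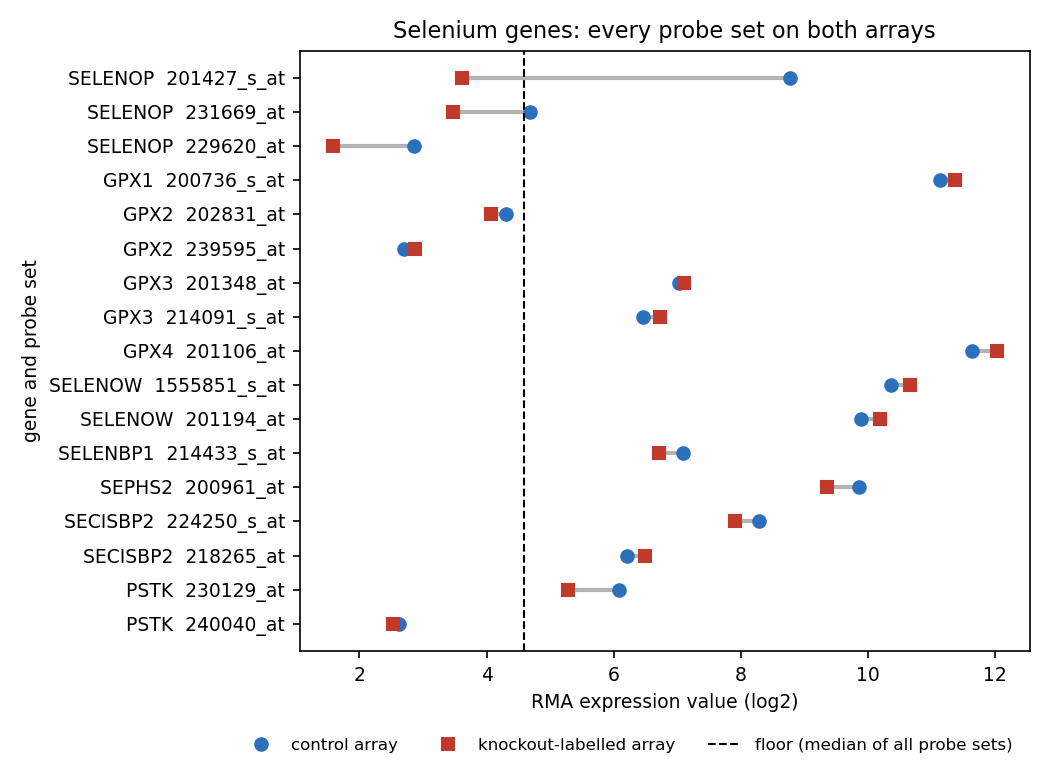
RMA expression value (log2, x axis) of all 17 probe sets of the 10 selenium genes on the control array (circles) and the knockout-labelled array (squares), with the floor of 4.59 as a dashed line. The brightest SELENOP probe set spans 8.77 to 3.62, while the other SELENOP probe sets start 0.09 above the floor or under it and both of GPX2 lie under it. Of the remaining pairs the widest apart is PSTK 230129_at, by 0.80.

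SELENOP, the secreted selenium carrier, had the lowest difference of all genes compared, although values under the floor have no order. Its brightest probe set, 201427_s_at, stood at 8.77 in the control and at 3.62 on the knockout-labelled array, a difference of -5.15. The value on the knockout-labelled array is under the floor, so the fold is a bound: at least 18.1-fold lower when the control value is set against the floor. A second probe set, 231669_at, read 4.68 and 3.47, a difference of -1.21 that starts only 0.09 above the floor. The third, 229620_at, was under the floor on both arrays at 2.86 and 1.58. All 3 probe sets were thus lower on the knockout-labelled array, but only 1 was clearly above the floor on the control array. That probe set is of a type (_s_) that can match several transcripts, and without such probe sets the gene's difference is the -1.21 of the second. In RNA from whole cultures, fewer cells that make SELENOP and less of its RNA per cell cannot be told apart.

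The measured protein-coding genes around SELENOP on chromosome 5 did not share its size of difference. CCDC152, its nearest protein-coding neighbour on one side in the RefSeq order, stood at 8.12 on the knockout-labelled array and differed by 0.12. ANXA2R, the nearest measured protein-coding gene on the other side, stood at 5.55 and 5.33. The 551 genes of chromosome 5 that were compared had a median difference of 0.03. Of 6 hepatocyte genes, markers of the main source of SELENOP in the body, TTR alone reached the floor, ALB, APOA1, APOB, TF and SERPINA1 were under it on both arrays, and their summed linear level was 119 on the knockout-labelled array and 99.1 in the control. The genes whose pair of values lay nearest to that of SELENOP over the 2 arrays were ODAM, TUBB2B and CXCL3, at distances of 0.50, 1.06 and 1.33 on the log2 scale. ODAM stood at 8.28 in the control and 3.51 on the knockout-labelled array, TUBB2B at 7.71 and 3.70, and CXCL3 at 8.36 and 4.89.

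The glutathione peroxidases made up 4 of the genes, and none differed by 2-fold. GPX4 stood at 12.02 on the knockout-labelled array and at 11.64 in the control, a difference of 0.38 (1.30-fold). GPX1, the abundant cytosolic form, stood at 11.36 and 11.13, a difference of 0.23 (1.17-fold). Differences between genes of similar expression had a scaled median absolute deviation (a robust spread) of 0.255 at this level. GPX4 lay outside that spread and GPX1 inside it. Counted from the lowest difference of 12830 genes, GPX4 ranked 11001 and GPX1 9380, so many other genes lay higher. GPX3, the secreted form, differed little, at 7.10 and 7.02 in its brighter probe set and 6.73 and 6.46 in the other. Its difference of 0.08 became -0.01 when the arrays were scaled on ribosomal protein genes, so GPX3 has no settled direction. Neither probe set of GPX2 reached the floor on either array, the brighter standing at 4.07 and 4.30, and the gene was not compared.

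SELENOW, a small selenoprotein of the thioredoxin-like fold, lay higher by the same amount in both of its probe sets. They stood at 10.66 and 10.19 on the knockout-labelled array and at 10.36 and 9.88 on the control array. The differences of 0.31 and 0.31 lay above the 0.255 spread of similar genes. With scaling on ribosomal protein genes the brighter differed by 0.21, inside that spread. SELENOW ranked 10298 of 12830 genes from the lowest difference. SELENBP1, which binds selenium without containing selenocysteine and oxidises methanethiol, lay lower, at 6.71 against 7.10. Its difference of -0.38 was within the spread of 0.436 at its level. GPX4 and SELENOW both lie on chromosome 19, whose 890 compared genes had a median difference of 0.10; whether that shift is part of their differences was not tested.

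**Figure D2:**
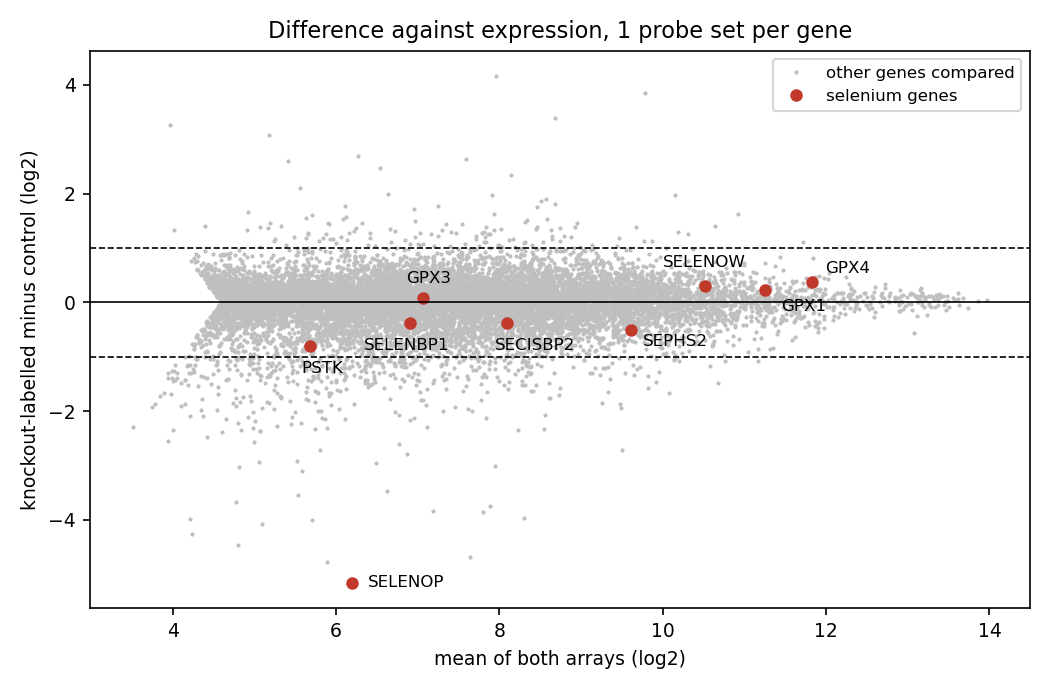
Difference between the arrays (knockout-labelled minus control, log2, y axis) against the mean of both (log2, x axis) for 12830 genes, 1 probe set each, with the 9 selenium genes above the floor named and dashed lines at 2-fold. SELENOP lies apart at -5.15, and the other 8 lie between the dashed lines, from -0.80 for PSTK to 0.38 for GPX4.

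In the making of selenocysteine, the steps differed in direction in their brightest probe sets. SARS1, the seryl-tRNA synthetase that begins the route, stood at 10.68 on the knockout-labelled array and 9.93 in the control in its brighter probe set (0.75), and its dimmer one differed by 0.16. PSTK, the kinase of the next step, lay in the other direction at 5.28 and 6.08, a difference of -0.80 (1.74-fold lower). Its second probe set was under the floor on both arrays, at 2.52 and 2.63, so that PSTK rests on 1 dim probe set, and the difference was -0.35 after 64 linear units were added to both arrays. SEPHS2, which makes selenophosphate and is itself a selenoprotein, stood at 9.36 and 9.86 in its single probe set, a difference of -0.50 (1.41-fold lower). SEPSECS, the final enzyme, lay higher at 6.71 and 6.17 in its brightest probe set (0.53). Of its other 4 probe sets 1569634_at lay just below 0 at -0.04 and 235516_at just above it at 0.05. The rest, 227982_at and 231730_at, differed by 0.69 and 0.50. Both PSTK and SEPHS2 lay outside the spread of genes at their level, 0.343 and 0.366. Counted from the lowest difference of 12830 genes, PSTK ranked 769 and SEPHS2 1640, so many other genes lay lower.

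SECISBP2, the SECIS-binding protein, gave opposite directions in its 2 probe sets. The brighter, 224250_s_at, stood at 7.91 on the knockout-labelled array and 8.28 in the control (-0.38), and the other, 218265_at, at 6.49 and 6.20 (0.29). As their mean the gene differed by -0.04, so no direction is given for it. EEFSEC, its partner on the ribosome, stood at 6.50 and 6.47. The selenocysteine synthesis and insertion list of 12 other genes, all of which reached the floor, had a median of -0.02. Of them 5 were above 0 and 7 below (52.9% of all genes were above). None was past 2-fold (1.05% of all genes were higher and 3.79% lower). After scaling on ribosomal protein genes 3 were above 0 and the median was -0.12. In their brightest probe sets SARS1 and SEPSECS alone differed by 0.5 or more, but a dimmer probe set of TRNAU1AP, a protein bound to the selenocysteine transfer RNA, differed by -0.95 and 1 of ELAVL1 by 0.71.

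Of the other 18 selenoproteins 15 had a probe set and 14 reached the floor. None was past 2-fold (1.05% of all genes were higher and 3.79% lower). Their median was 0.18, with 9 above 0 and 5 below (52.9% of all genes were above). In their brightest probe sets they ranged from -0.38 in MSRB1, a methionine sulfoxide reductase, to 0.48 in SELENOK, a selenoprotein of the endoplasmic reticulum. SELENOI, a phospholipid-synthesis enzyme, gave -0.11 in the brightest probe set but -0.72 in another, at 7.72 and 8.44. The thioredoxin reductases TXNRD1, of the cytosol, and TXNRD2, of mitochondria, differed by 0.17 and 0.34. Over all 20 selenoproteins that reached the floor, 65.0% lay above 0, beside 52.9% of all genes, and SELENOP was the only one past 2-fold. Their median of 0.18 stood at 0.08 after scaling on ribosomal protein genes, beside -0.06 for all genes, with 12 of 20 selenoproteins and 42.9% of all genes above 0. The methionine sulfoxide reductases and glutathione peroxidases that carry cysteine in place of selenocysteine had a median of -0.12 over the 4 of 6 that reached the floor, from -0.21 to 0.16 in their brightest probe sets. The dimmer ones of MSRB2 differed by more, by -0.55 and, in 1 that reached the floor in the control alone, by -1.10, and that of GPX8 by -0.56.

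Of 6 genes of selenium uptake and recycling 5 reached the floor, with a median of 0.42 and none past 2-fold. Of these 5 genes 4 were above 0 (52.9% of all genes were). SLC7A11, the cystine transporter, is also known to promote uptake of selenium from selenite. It stood at 9.28 on the knockout-labelled array and 8.32 in the control, a difference of 0.96 just under 2-fold. Of its dimmer probe sets 217678_at differed by 1.04, but 207528_s_at, at 5.98 and 5.84, by only 0.14. LRP8, the SELENOP receptor, had 3 probe sets with differences of 0.63, 0.20 and -0.78, the brightest at 8.65 and 8.01, so its direction depends on the probe set. SCLY, the lyase that recovers selenium from free selenocysteine, differed by -0.06 in its brightest probe set. Its dimmer ones differed by -0.13 and, in 59705_at, at 5.18 and 5.87, by -0.70. Glutathione and thioredoxin partners, 11 of 12 of which reached the floor, had a median of 0.15, with 8 above 0 (52.9% of all genes were). In their brightest probe sets the highest value was 0.43 in GCLC, a subunit of the enzyme that limits glutathione synthesis. A dimmer probe set of GCLC differed by 0.50 and 1 of PRDX2 by 0.48. After scaling on ribosomal protein genes 6 of the 11 were above 0 and the median was 0.055. With the selenium genes set aside, none of the 46 pathway genes compared was past 2-fold in its brightest probe set. Over all genes 1.05% were 2-fold higher and 3.79% lower, so nothing is read from a count of none in lists of this size.

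**Figure D3:**
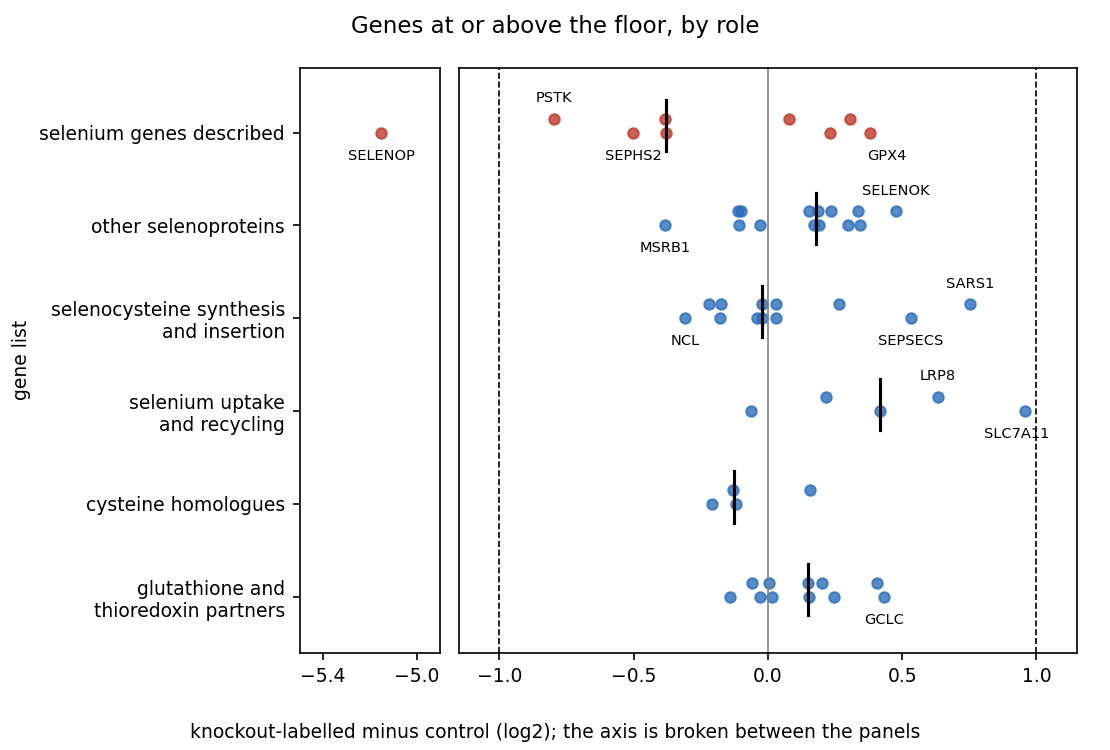
Difference between the arrays (log2, x axis, broken between the panels) of each gene at or above the floor, by list (y axis), with black bars at the list medians and dashed lines at 2-fold. SELENOP at -5.15 is the only point past a dashed line. The list medians run from -0.38 for the genes described here to 0.42 for uptake and recycling. The first of these was -0.15 without SELENOP, which was chosen on this contrast. With SELENOP kept it was 0.06 under the mean of each gene's probe sets, so this order is not settled.

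The differences were set beside each other under every processing alternative. SELENOP kept its direction in all, from -5.25 to -1.21 without spike-in scaling, and was -4.10 when the arrays were scaled on the spike-ins. GPX1, GPX4 and SELENOW lay above 0 and SELENBP1, SEPHS2 and PSTK below 0 under each alternative in which they were compared except spike-in scaling, which moved every gene up and placed the last 3 above 0, at 0.66, 0.55 and 0.25. Over all genes that scaling moved the median difference to 1.08, so that relative to it these 3 genes were still lower.

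**Figure D4:**
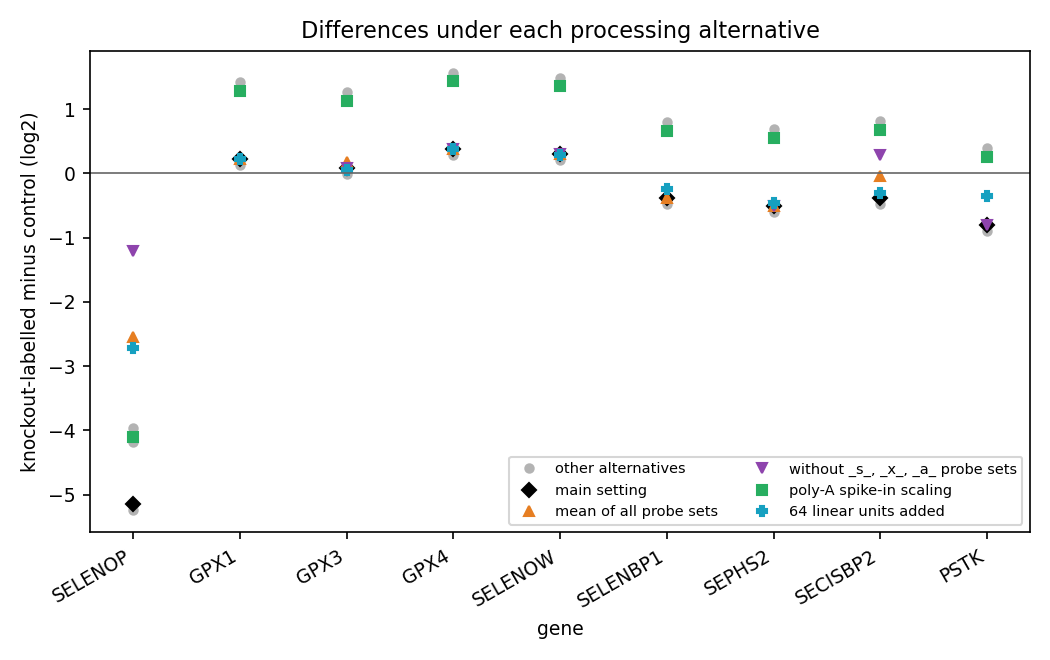
Difference between the arrays (log2, y axis) of the 9 selenium genes above the floor (x axis) in the main setting (diamonds) and under each alternative (other symbols). SELENOP spreads from -5.25 to -1.21, SECISBP2 changes sign with the probe set used, and spike-in scaling shifts all genes upward by 1.05, or by 1.19 without the TrpnX probe sets.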

How the data were processed

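Total RNA of 2 HCT15 cultures was measured on 1 Affymetrix array each, with biotin-labelled cRNA made by the maker's standard procedure, per the labels' protocols. The authors deposited RMA values on the log2 scale (per the submitters' processing notes, without a version). RMA corrects background, equalises the arrays' distributions and summarises each probe set, which compresses dim differences and removes any difference in total RNA. Which arrays entered that step together is not stated.

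Of the probe sets, 62 were controls, 41091 had 1 gene symbol, 1801 several and 11721 none; only those with 1 symbol were used. Entrez identifiers were looked up (41037 found, 0 symbols changed) in a RefSeq table of GRCh38.p14. Genes of chromosome Y, XIST and TSIX (35) were left out. The probe set of highest mean stood for a gene. A gene was compared where its higher value reached the floor, and called at 2-fold, with no test. The spread beside a gene is the scaled median absolute deviation of differences in its bin of 10 bins of mean expression. The share of all genes outside their spread was not counted, so lying outside it does not mark a gene as unusual. Precision is limited by the number of arrays.

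The genes and lists were chosen with earlier results of these data known. Named were all 10 genes with every probe set, other pathway genes with a difference of at least 0.5, and TXNRD1, TXNRD2, SEPSECS, EEFSEC, LRP8 and SCLY. The ends of a list's range, and some of the genes whose dimmer probe sets fell outside it, are named too and were chosen after their values were seen. Not all such genes are named in the lists above: the dimmer probe sets of SEPHS1, for example, differed by -0.44 and -0.36. Of the marker lists fixed for other cells, 2 of 6 fibroblast, 2 of 4 leukocyte (of 6 listed) and 1 of 4 endothelial genes with a probe set reached the floor on either array. None was past 2-fold in its brightest probe set, but another of COL1A1, 1556499_s_at, stood at 3.17 (knockout-labelled) and 5.64 (control). The 3-prime minus 5-prime value was -0.03 (knockout-labelled) and -0.02 (control) for GAPDH, and 0.67 and 0.73 for ACTB. Alternatives tried were omitting the floor, raising it to the 75th percentile, the mean of probe sets, leaving out probe sets marked _s_, _x_ or _a_, removing a loess trend (span 0.3), median centring, scaling on 54 ribosomal protein genes or on the poly-A spike-ins, adding 64 linear units, raising values to the floor, and thresholds of 1.5-fold and 3-fold. Analyses used Python 3.11.15, pandas 2.3.3 and statsmodels 0.14.6, and the steps were tested on simulated data.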

Additional observations from a re-analysis of the deposited data

How the results depend on the processing

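No paired analysis was possible because each group had 1 array. Of 95 differences of the 9 selenium genes under an alternative, 71 moved by less than the spread of similar genes and 24 by more. That tally is no measure of stability. Omitting or raising the floor cannot change a gene's difference, and spike-in scaling shifts every gene by the same amount. SELENOP differed by -2.55 as the mean of its probe sets, -1.21 without probe sets of the _s_, _x_ and _a_ types, -2.71 with 64 linear units added, -4.18 with values raised to the floor and -4.10 with spike-in scaling. The median of the selenium genes became 0.064 with probe set means, 0.080 without those types and 0.67 with spike-in scaling. That scaling put 4 selenium genes and 32 other pathway genes 2-fold higher, and over all genes 7567 higher and 58 lower. The spike-in set used held 3 TrpnX probe sets, which differed by 0.05. Without them, a choice made after seeing the data, the spike-ins lay 1.19 lower, SELENOP differed by -3.96, the median of the selenium genes was 0.81, 4 selenium and 42 other pathway genes were 2-fold higher, and over all genes 9130 were higher and 44 lower. At 1.5-fold, 2 selenium genes were lower (SELENOP and PSTK), 3 other pathway genes higher, and over all genes 749 higher and 1348 lower; at 3-fold, 25 and 133. Over all genes the higher floor gave 290 lower of the 8192 genes it left. Probe set means gave 83 higher, and 64 added units, which shrink the differences of dim genes, 46 higher and 117 lower. For the probe set alternatives the cause was not tested. The reading of SELENOP on the knockout-labelled array is limited by the floor, and PSTK and GPX2 by dim signal.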
